A study of Mus musculus with 6 samples.

Results

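Interferon response genes encode the sensors of foreign nucleic acid, the receptors and transcription factors that carry the interferon signal, and the antiviral and antigen-presenting proteins made in answer to it. The 33 genes described here were chosen by name, with earlier results of these data known. Each had 1 row among the 32973 rows of the expression table. They comprised 4 sensors (Ddx58, Ifih1, Dhx58, Zbp1), 8 receptor and signalling genes (Ifnar1, Ifnar2, Stat2, Irf9, Irf1, Irf3, Irf7, Usp18) and 21 effectors, of which 5 were of the Ifit and Oas families, 12 were other antiviral genes and 4 served antigen presentation. RNA was measured in primary mouse muscle stem cells sorted from skeletal muscle and cultured for 3 days on collagen, in medium that held serum and bFGF, a growth factor for these cells. The 3 Med23KO libraries came from cells of genotype Med23flox/flox::Pax7CreERT2, and the 3 Ctrl libraries from Med23flox/flox cells, which carry the same loxP-flanked alleles but no Cre. Both groups are labelled as having no treatment, and the labels give neither the age of the mice nor how many were used. Pax7CreERT2 is a Cre recombinase driven by Pax7, a marker of muscle stem cells, and active in the presence of tamoxifen. No group carried Cre without the loxP-flanked alleles, so that Cre and the loss of Med23 cannot be told apart. The comparison asks how the transcriptome of these cells differs when Med23, a subunit of Mediator, the bridge between transcription factors and RNA polymerase II, is deleted.

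Type I interferons bind a receptor made of IFNAR1 and IFNAR2, whose kinases JAK1 and TYK2 phosphorylate STAT2. STAT2 acts with IRF9 at the interferon-stimulated response element (ISRE) in the promoters of interferon-stimulated genes. Upstream, RIG-I (Ddx58) and MDA5 (Ifih1) detect viral RNA and activate IRF3 and IRF7, which switch on interferon genes, and IRF3 can also act on some ISRE promoters directly. In human cells, MED23 has been reported to bind IRF7 and to raise the expression of interferon lambda genes.

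The unit of expression is FPKM, which divides sequenced fragments by transcript length and by the size of the library, whose depth is unknown here. Med23 itself had 47.1% of the control level, at 5.06 ± 0.818 FPKM in Med23KO and 10.8 ± 0.783 FPKM in Ctrl (SD, n = 3 each), and the 2 groups did not overlap. The labels do not tell whether each library is its own animal or culture. All p-values therefore speak to the variation among these 6 libraries, part of which may be technical. The muscle lineage genes Pax7, Myf5, Myod1 and Des were present in each library, with Pax7 at 32.4 to 60.3 FPKM in Med23KO and 34.5 to 57.7 FPKM in Ctrl. Of the 10 muscle stem cell markers listed, 8 were tested and 0 passed (limma), with 1 higher and 1 lower at an unadjusted p under 0.05. The lower one, Itga7, had 58.1 ± 6.96 FPKM in Med23KO and 98.5 ± 17.2 FPKM in Ctrl with groups apart (SD, n = 3 each, limma adjusted p = 0.0515). The higher one, Cdh15, had 32.0 ± 10.2 FPKM in Med23KO and 18.2 ± 4.57 FPKM in Ctrl (SD, n = 3 each, limma adjusted p = 0.168). Cdh4, under the filter, had 0.805 ± 0.148 FPKM in Med23KO and 1.19 ± 0.0551 FPKM in Ctrl, also with groups apart. Med23KO replicate 3 stood lower than the others, with a median over all genes tested of -0.10 on the log2(FPKM + 1) scale relative to the Ctrl mean, against 0.01 in both other Med23KO libraries. As these are bulk samples, fewer cells of a type and less RNA per cell cannot be told apart.

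Of the 33 genes, 20 averaged 1 FPKM or more across the 6 libraries and were tested. These were Ddx58, Ifnar1, Ifnar2, Stat2, Irf9, Irf1, Irf3, Irf7, Ifit1, Ifit2, Isg15, Ifi35, Bst2, Rtp4, Trim25, Parp9, Psmb8, Psmb9, Tap1 and B2m. The 13 others were Ifih1, Dhx58, Zbp1, Usp18, Ifit3, Oas1a, Oasl2, Mx1, Mx2, Rsad2, Ifi44, Xaf1 and Parp14, and 12 of these had a value above 0 in at least 1 library. In the annotation, 15 of the 33 overlap another gene (among them Irf1, Irf3, Irf7, Irf9, Parp9, Psmb9, Tap1 and B2m), and their values are uncertain to that extent. Of the tested genes, 1 rose in Med23KO and 0 fell (limma on log2(FPKM + 1), Benjamini-Hochberg adjusted p under 0.05 over 12336 genes). The background was 1.49% of all tested genes higher and 1.42% lower. The gene that rose was Ifit1. With the libraries scaled to equal medians the background was 2.85% higher and 1.61% lower, and Ifit1 was again the gene that rose. At an unadjusted p under 0.05, 2 genes, Ifit1 and Ddx58, were higher and 0 were lower, where the background was 8.84% higher and 10.9% lower.

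The median log2 difference of the 20 tested genes was 0.10, and 15 of them (75%) lay above 0. Over all genes tested, the median was -0.03, and 45.1% lay above 0. Ifit1, Ddx58, Irf7, Isg15 and Parp9, 5 of the 20, had a Ctrl mean under 1 FPKM and passed the filter through their Med23KO values, so these counts describe the tested genes and support no direction for the list. Among all 33, the Med23KO mean was higher in 26 and lower in 6. The matching share over all genes was not computed, so this count too supports no direction.

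**Figure D1:**
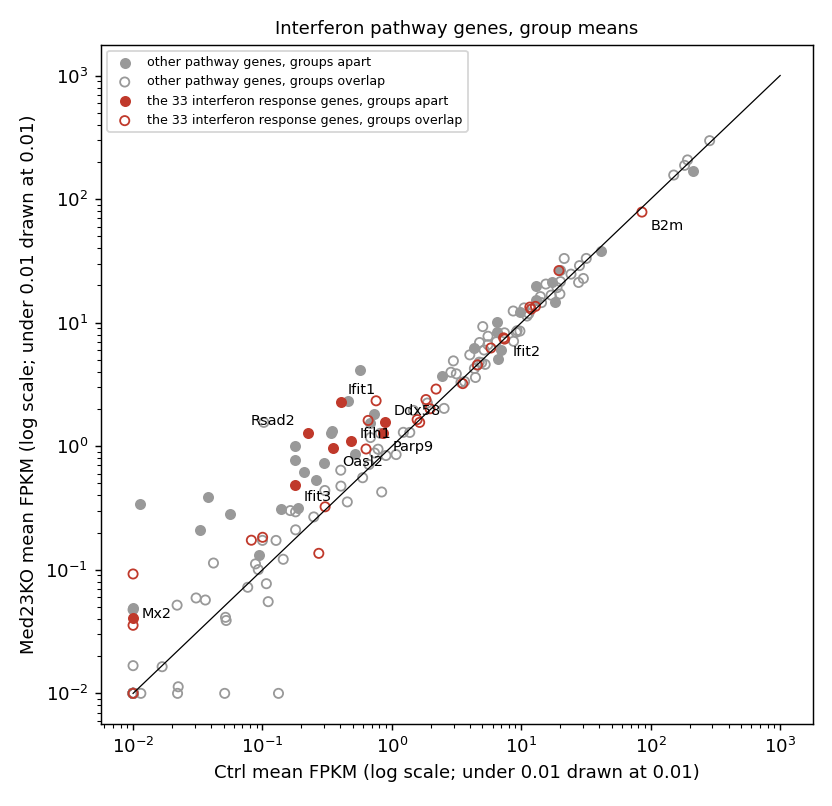
Mean FPKM of each gene in Med23KO (vertical) against Ctrl (horizontal), both on log scales, for the 33 interferon response genes (red) and the other interferon pathway genes (grey). Filled points are genes whose 3 Med23KO values lie on 1 side of the 3 Ctrl values; most filled red points lie under 1 FPKM in Ctrl and above the diagonal, while B2m, at 78.5 FPKM in Med23KO and 85.5 FPKM in Ctrl, and Ifit2 lie close to it.

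Ifit1, Rsad2, Ifit3, Oasl2, Mx2, Ddx58, Ifih1 and Parp9 shared a separation of the 2 groups, though not the order of libraries within them. In these 8 of the 33 genes the 3 Med23KO values lay above the 3 Ctrl values, and in 0 they lay below. Of the 20 tested genes, 3 (Ddx58, Ifit1, Parp9) had all Med23KO libraries above all Ctrl libraries, which is near the background, since 10% of all tested genes did. None of the 20 had the reverse order, which 14.7% of all tested genes had. Ddx58, Ifit1 and Parp9 each had a Ctrl mean under 1 FPKM and passed the filter through their Med23KO values. The counts for the 20 tested genes therefore support no direction. Of the 9 genes with a mean of 0.1 to 1 FPKM, 4 (Ifih1, Ifit3, Oasl2, Rsad2) had all Med23KO libraries above all Ctrl libraries, against 12.8% of the 3708 genes of that range. None had the reverse order, against 4.96%. The genes were chosen with earlier results of these data known, so these counts support no direction either. Mx2 was the remaining gene of the 8, at a level under 0.1 FPKM. Among all 8130 genes under 1 FPKM with a value above 0, 7.91% had all Med23KO libraries above and 3.1% below. The exact permutation test (two-sided) of each of the 8 had p = 0.1, and no smaller value can be reached with 3 libraries a group.

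**Figure D2:**
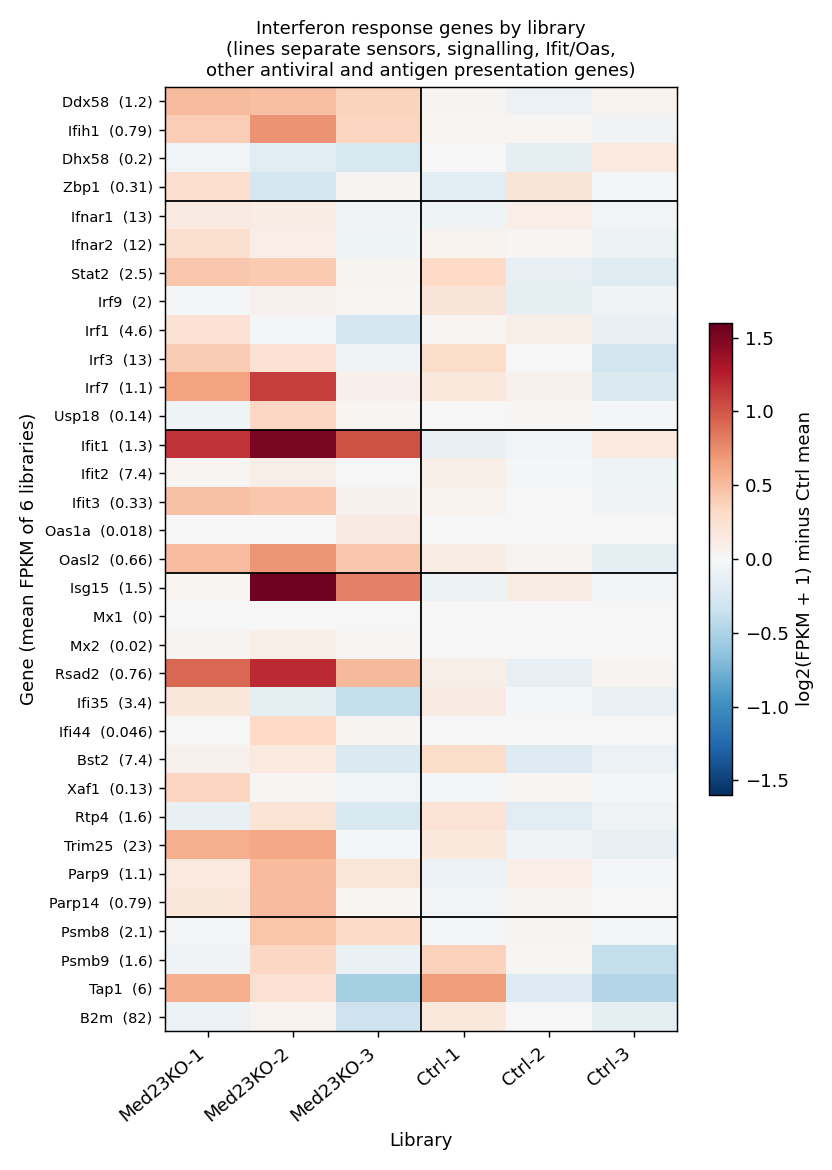
Each row is 1 of the 33 genes, with its mean FPKM over 6 libraries in brackets, and each column 1 library; colour is log2(FPKM + 1) minus the Ctrl mean of that gene. Ifit1, Rsad2, Oasl2, Ifih1 and Ddx58 are red in all 3 Med23KO columns, Isg15 and Irf7 are strongest in Med23KO replicate 2, and the receptor and antigen presentation genes show no such block.

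The cytosolic RNA sensors RIG-I and MDA5 were both represented by low-level transcripts that lay higher in Med23KO. Ddx58, which encodes RIG-I, a sensor of short and uncapped viral RNA, had 1.68, 1.64 and 1.40 FPKM in Med23KO replicates 1, 2 and 3, against 0.932, 0.765 and 0.955 FPKM in Ctrl replicates 1, 2 and 3. The groups did not overlap, but the log2 difference of 0.45 (SE 0.140) did not pass the test (limma adjusted p = 0.137). Ifih1, which encodes MDA5, a sensor of long double-stranded RNA, had 0.956, 1.44 and 0.887 FPKM in Med23KO and 0.518, 0.512 and 0.421 FPKM in Ctrl. The lowest Med23KO library was above the highest Ctrl library, and the ratio of the means was 2.26. Ifih1 lay under the filter on low values, and with no filter its adjusted p was 0.131 (limma).

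The remaining sensors did not follow them. Dhx58 encodes LGP2, a regulator of RIG-I and MDA5 that lacks their signalling domains, and had 0.136 ± 0.0840 FPKM in Med23KO and 0.272 ± 0.140 FPKM in Ctrl (SD, n = 3 each), with overlapping groups. Zbp1, a sensor of Z-form nucleic acid linked to cell death, had 0.324 ± 0.243 FPKM in Med23KO and 0.305 ± 0.174 FPKM in Ctrl. For both, the difference was not detectable against the spread between libraries.

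The interferon receptor genes were expressed at a moderate level with little difference between the groups. Ifnar1 had 14.2, 14.1 and 12.3 FPKM in Med23KO and 12.2, 13.9 and 12.5 FPKM in Ctrl. Ifnar2, the partner chain, had 14.4, 12.9 and 11.3 FPKM in Med23KO and 12.5, 12.1 and 11.2 FPKM in Ctrl. The groups overlapped for both chains, with log2 differences of 0.07 (SE 0.107, limma adjusted p = 0.788) and 0.10 (SE 0.117, limma adjusted p = 0.709). The 2 chains lay within each other's spread, at 13.5 ± 1.06 and 12.9 ± 1.53 FPKM in Med23KO (SD, n = 3).

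Stat2 and Irf9, which act together downstream of the receptor, were expressed at a low level. Stat2 had 3.26, 3.20 and 2.24 FPKM in Med23KO and 2.95, 1.87 and 1.77 FPKM in Ctrl, a log2 difference of 0.30 (SE 0.191) that did not pass (limma adjusted p = 0.454). Irf9, which gives DNA specificity, had 1.93, 2.10 and 2.002 FPKM in Med23KO and 2.41, 1.66 and 1.85 FPKM in Ctrl, with a log2 difference of 0.03 (limma adjusted p = 0.950). For Irf9, the Med23KO libraries lay inside the Ctrl range.

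None of the 4 interferon regulatory factors passed. Irf3, which is stored in the cytoplasm and acts first, had 15.5, 13.6 and 10.97 FPKM in Med23KO and 14.3, 11.4 and 9.20 FPKM in Ctrl. Its groups overlapped widely (log2 difference 0.19, limma adjusted p = 0.625). Irf1, which also answers interferon gamma, had 4.55 ± 0.963 FPKM in Med23KO and 4.59 ± 0.428 FPKM in Ctrl (SD, n = 3 each, limma adjusted p = 0.967). Irf7, the interferon-inducible amplifier of type I interferon genes, had 1.56, 2.55 and 0.745 FPKM in Med23KO and 0.845, 0.723 and 0.398 FPKM in Ctrl. Med23KO replicates 1 and 2 lay above every Ctrl library, and Med23KO replicate 3 lay among them. The log2 difference of 0.61 (SE 0.269) did not pass (limma adjusted p = 0.265), and 1 library at a time moved it both ways. It was 0.87 without Med23KO replicate 3, where it passed (limma adjusted p = 0.0476), and 0.36 without Med23KO replicate 2 (limma adjusted p = 0.630). Irf7 overlaps Phrf1 on the opposite strand in the annotation, and whether reads were counted by strand is not given in the sources used here. Usp18, a protease that removes ISG15 and dampens the receptor, had 0.0474, 0.381 and 0.121 FPKM in Med23KO and 0.10005, 0.119 and 0.0820 FPKM in Ctrl. Med23KO replicate 1 was the lowest of the 6 libraries and Med23KO replicate 2 the highest.

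**Figure D3:**
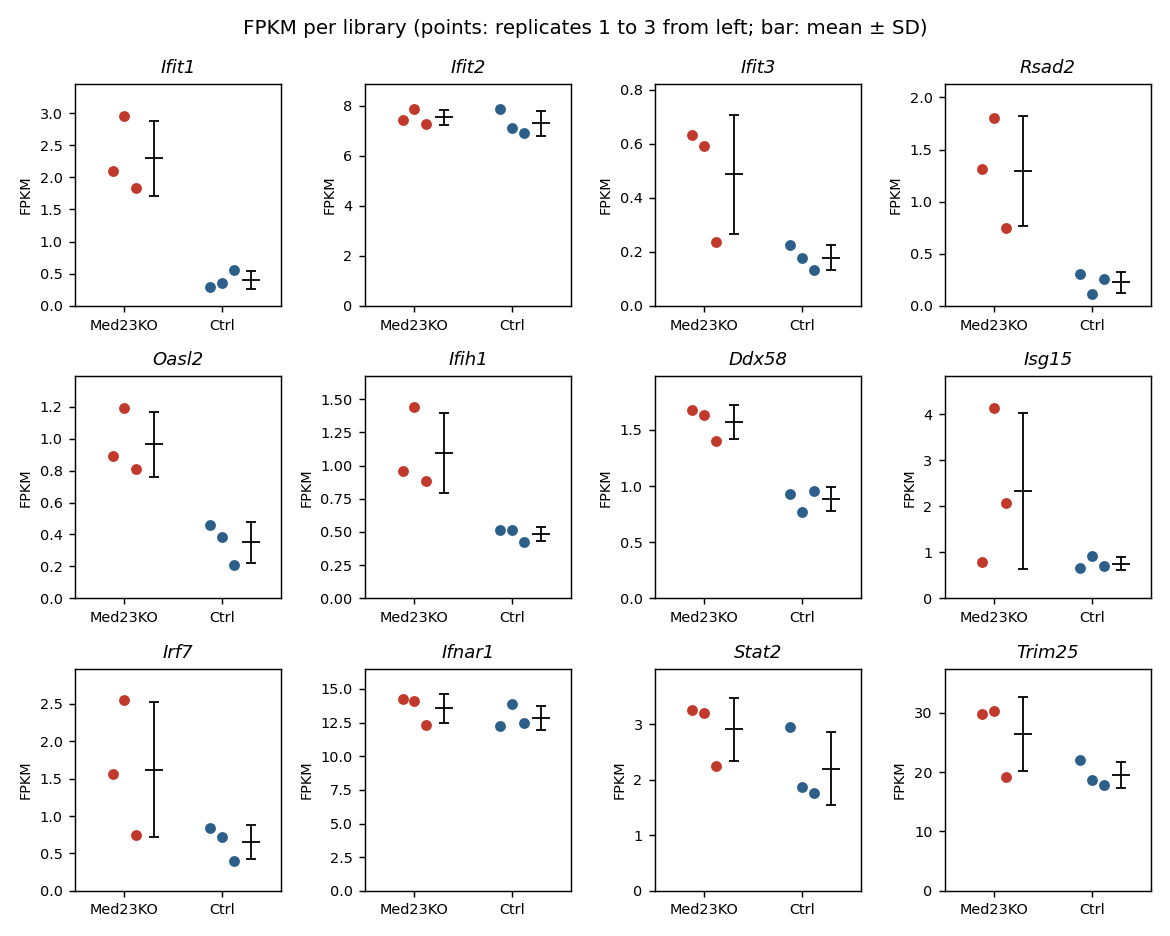
FPKM in each library for 12 of the genes, with Med23KO in red to the left of Ctrl in blue; points are replicates 1 to 3 and the bars are mean ± SD. Ifit1, Rsad2, Oasl2, Ifih1 and Ddx58 do not overlap between the groups, while Ifit2, Ifnar1 and Stat2 do.

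The Ifit genes, whose proteins bind viral RNA and block its translation, lie near each other on mouse chromosome 19. Ifit1 rose, Ifit2 did not pass the test and Ifit3 lay under the filter. Ifit1 lies on the plus strand of chromosome 19 from 34640871 to 34650009 in mm10 (ENSMUSG00000034459.8) and had 2.10, 2.95 and 1.83 FPKM in Med23KO and 0.286, 0.359 and 0.560 FPKM in Ctrl. The means were 2.30 ± 0.586 FPKM in Med23KO and 0.402 ± 0.142 FPKM in Ctrl (SD, n = 3 each), a 5.71-fold ratio. Its log2 difference, taken after adding 1 FPKM to each value, was 1.22 (SE 0.179, limma adjusted p = 0.0213). That scale understates the change of so low a gene. The rise was in 3 of 3 Med23KO libraries, and with any 1 library left out the log2 difference stayed between 1.08 and 1.33. The call itself was lost without Med23KO replicate 1 (adjusted p = 0.0738), Med23KO replicate 2 (adjusted p = 0.128), or any 1 of Ctrl replicates 1, 2 and 3 (adjusted p = 0.0635, 0.111 and 0.0569), and it held without Med23KO replicate 3 (adjusted p = 0.00869), all by limma.

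Ifit2 (mm10 chromosome 19, positions 34550694 to 34576419, plus strand) was the most highly expressed of the Ifit genes and did not pass. It had 7.44, 7.88 and 7.29 FPKM in Med23KO and 7.85, 7.13 and 6.91 FPKM in Ctrl, with a log2 difference of 0.04 (SE 0.105, limma adjusted p = 0.879). Its groups overlapped, and the ratio of the means was 1.03. Ifit3, between them on the same strand (34583531 to 34588731), had 0.634, 0.592 and 0.235 FPKM in Med23KO and 0.224, 0.177 and 0.132 FPKM in Ctrl. The groups were apart, though Med23KO replicate 3 was barely above the highest Ctrl library. With no filter its adjusted p was 0.249 (limma). Ifit3 has a close copy, Ifit3b, with 0.268 to 0.295 FPKM in Med23KO and 0 to 0.132 FPKM in Ctrl, and how the reads were divided between these copies is uncertain; Ifit3b was looked up after the values of Ifit3 were seen. Whether the difference of Ifit1 differs from that of Ifit2 was not tested.

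The promoters of these genes are shown because they hold, or lack, the ISRE core at which STAT2 and IRF9 act. Each line gives the 200 bases before the start site from RefSeq (GRCm38.p6, the build mm10), 5′ to 3′ along the gene, with matches to the ISRE core (GAAA, any pair of bases, then GAAA again, on either strand) in capitals. Ifit1 (chr19:34640689-34640888, plus strand), Ifit3 (chr19:34583329-34583528, plus strand), Ifit2 (chr19:34550494-34550693, plus strand), Rsad2 (chr12:26456453-26456652, minus strand) and Isg15 (chr4:156200819-156201018, minus strand) were read from the same table.
Ifit1: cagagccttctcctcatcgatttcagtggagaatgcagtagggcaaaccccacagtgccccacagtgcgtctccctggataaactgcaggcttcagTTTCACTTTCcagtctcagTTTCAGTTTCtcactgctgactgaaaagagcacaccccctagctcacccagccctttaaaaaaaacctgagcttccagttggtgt
Ifit3: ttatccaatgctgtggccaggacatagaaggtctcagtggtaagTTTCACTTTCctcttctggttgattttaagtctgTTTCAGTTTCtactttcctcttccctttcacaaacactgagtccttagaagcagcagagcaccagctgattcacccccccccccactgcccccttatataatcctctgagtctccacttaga
Ifit2: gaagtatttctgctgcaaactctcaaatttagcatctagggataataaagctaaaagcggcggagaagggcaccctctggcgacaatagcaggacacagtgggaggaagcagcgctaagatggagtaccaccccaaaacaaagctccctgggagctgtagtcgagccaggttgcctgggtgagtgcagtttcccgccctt
Rsad2: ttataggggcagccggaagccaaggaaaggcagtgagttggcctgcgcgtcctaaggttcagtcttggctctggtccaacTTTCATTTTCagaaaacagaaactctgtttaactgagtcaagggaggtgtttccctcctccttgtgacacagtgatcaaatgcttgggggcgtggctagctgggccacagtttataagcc
Isg15: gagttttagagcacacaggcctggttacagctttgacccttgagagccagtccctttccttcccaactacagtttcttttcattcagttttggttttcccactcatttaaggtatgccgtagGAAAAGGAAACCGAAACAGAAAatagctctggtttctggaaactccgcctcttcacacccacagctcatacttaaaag
Ifit1 and Ifit3 carry 2 matches each with the same letters, TTTCACTTTC and TTTCAGTTTC, which begin 104 and 85 bases before the start of Ifit1 and 156 and 122 bases before that of Ifit3. Rsad2 carries 1 match, and Isg15 carries 3 that overlap each other. These letters do not occur in the stretch shown for Ifit2. RefSeq lists another start for Ifit2, and the window around it (chr19:34550838-34551137) held no ISRE core match either.

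Over the promoter windows of RefSeq, 250 bases before to 50 after each start, the ISRE core was common among these genes. Of the 33 genes, 25 had a window, and 10 of them (40%) held a match, namely Ifit1, Ifit3, Rsad2, Ddx58, Ifih1, Isg15, Stat2, Oas1a, Bst2 and B2m. Of all 27025 genes with a window, 3.99% held one, and of all 32851 windows 3.44%. As the 33 genes were chosen as interferon response genes, a higher share could be foreseen and is given as a description only. Ddx58 holds the match TTTCGATTTC from 2 bases after its start and Ifih1 the match GAAACAGAAA from 32 bases after its start. Among the 8 genes whose groups did not overlap, 6 had a window and 5 of these held a match, and among the other genes with a window 5 of 19 did. These genes were picked by their values, so this is a description with no test. The other motif searched was the interferon gamma activated site core TTCNNNGAA, which reads the same on both strands. It was found in 8 of the 25 genes (32.0%) and in 9.55% of all genes with a window, and in 0 of the 6 genes whose groups did not overlap. In 1 window a match to it overlapped an ISRE match. A match is a string of letters and not a measured binding site.

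**Figure D4:**
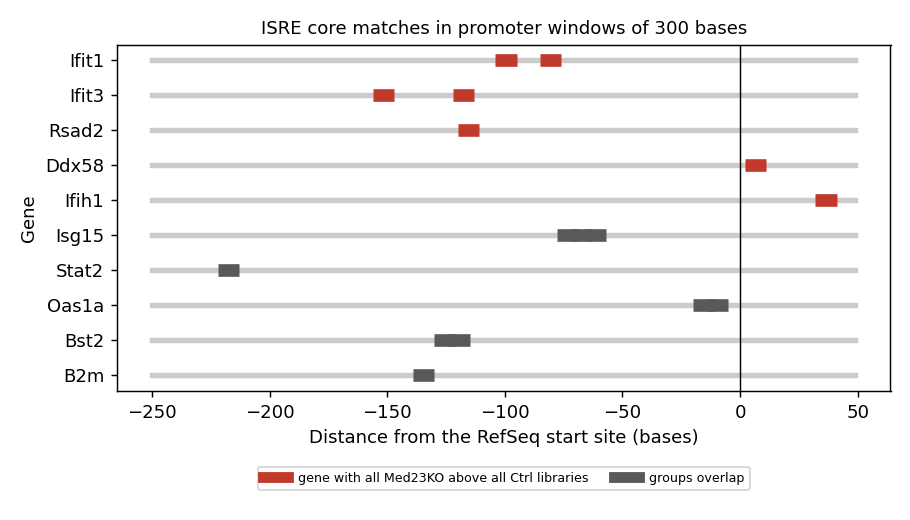
Positions of matches to the ISRE core (blocks) in the 300-base promoter windows (grey bars) of the 10 genes that hold one, by distance from the RefSeq start site in bases. Red blocks mark genes with all Med23KO libraries above all Ctrl libraries (Ifit1, Ifit3, Rsad2, Ddx58, Ifih1), and dark grey blocks the genes whose groups overlap; overlapping matches are drawn as 1 longer block.

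The 2'-5'-oligoadenylate synthetase family, which activates the RNA-degrading enzyme RNase L, was represented by Oas1a and the related Oasl2. Oas1a was listed at 0 in every library except Med23KO replicate 3, at 0.107 FPKM. Oasl2 lies on the plus strand of chromosome 5 (114896936 to 114912234 in mm10) and had 0.889, 1.19 and 0.811 FPKM in Med23KO and 0.461, 0.384 and 0.209 FPKM in Ctrl. All 3 Med23KO libraries were above all 3 Ctrl libraries, at 2.75 times the Ctrl mean. With no filter its adjusted p was 0.0959 (limma).

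Among the other antiviral effectors, Rsad2 came closest to Ifit1. Rsad2 (ENSMUSG00000020641.16, mm10 chromosome 12, positions 26442746 to 26456452, minus strand) encodes viperin, an enzyme that makes a chain-terminating nucleotide, and had 1.32, 1.81 and 0.750 FPKM in Med23KO and 0.308, 0.115 and 0.257 FPKM in Ctrl. The ratio of the means was 5.69, close to the 5.71 of Ifit1. With no filter its adjusted p was 0.0914, and with a filter of 0.1 FPKM and a pseudocount of 0.1 it was 0.0511 (limma), neither of which passed.

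Isg15, the ubiquitin-like protein that is attached to other proteins during an interferon response, varied among the knockout libraries. It had 0.788, 4.13 and 2.07 FPKM in Med23KO and 0.655, 0.910 and 0.700 FPKM in Ctrl. Med23KO replicate 1 lay within the Ctrl range, whereas for Ifit1 and Rsad2 it lay above. The log2 difference of 0.80 (SE 0.349) did not pass (limma adjusted p = 0.263). Leaving out Med23KO replicate 2 gave 0.42 and leaving out Med23KO replicate 1 gave 1.18, neither of which passed (limma adjusted p = 0.601 and 0.106). Trim25, the ubiquitin ligase that acts with RIG-I and has roles outside the interferon response, was the second most highly expressed of the 33 genes, at 29.7, 30.3 and 19.2 FPKM in Med23KO and 22.1, 18.6 and 17.9 FPKM in Ctrl. Med23KO replicates 1 and 2 were above every Ctrl library and Med23KO replicate 3 was not. The log2 difference of 0.39 (SE 0.185) did not pass (limma adjusted p = 0.297), nor did it without Med23KO replicate 1 (0.30, limma adjusted p = 0.546) or replicate 2 (0.28, limma adjusted p = 0.657). It passed without Med23KO replicate 3 (0.60, limma adjusted p = 0.0245), and with all 6 libraries under library weights (limma adjusted p = 0.0425) and with the replicate number as a block (limma adjusted p = 0.0485).

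Parp9 and Parp14, which encode partner ADP-ribosyltransferases of interferon signalling, lay slightly higher in Med23KO. Parp9 had 1.06, 1.65 and 1.13 FPKM in Med23KO and 0.744, 1.00 and 0.832 FPKM in Ctrl, and its groups were apart by a small margin (limma adjusted p = 0.391). Parp9 overlaps Dtx3l on the opposite strand in the annotation. Parp14 had 0.854, 1.32 and 0.671 FPKM in Med23KO and 0.581, 0.680 and 0.632 FPKM in Ctrl, with overlapping groups.

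The groups overlapped for most other antiviral genes. Bst2, the tetherin that holds budding virus at the cell surface, had 7.36 ± 1.14 FPKM in Med23KO and 7.42 ± 1.57 FPKM in Ctrl, and Ifi35, a binding partner of NMI, had 3.21 ± 0.852 FPKM in Med23KO and 3.53 ± 0.387 FPKM in Ctrl (SD, n = 3 each). Rtp4 had 1.56 ± 0.439 FPKM in Med23KO and 1.64 ± 0.368 FPKM in Ctrl (SD, n = 3 each). None of these 3 passed, with limma adjusted p-values of 0.994, 0.767 and 0.922. Xaf1, an antagonist of the caspase inhibitor XIAP, had 0.0453 to 0.377 FPKM in Med23KO and 0.0673 to 0.110 FPKM in Ctrl. Mx1, a dynamin-like antiviral GTPase, was listed at 0 in all 6 libraries. Mx2 was listed at 0 in the Ctrl libraries and at 0.0334, 0.0655 and 0.0237 FPKM in Med23KO. Ifi44 was also listed at 0 in the Ctrl libraries, and at 0, 0.248 and 0.0299 FPKM in Med23KO. At such levels a value of 0 can be a failed estimate as well as an absent transcript, and no fold is given against it.

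The antigen presentation genes, which interferons also induce, did not pass the test in either direction. B2m, the light chain of MHC class I and the most highly expressed of the 33 genes, had 79.7, 88.6 and 67.3 FPKM in Med23KO and 95.5, 84.8 and 76.2 FPKM in Ctrl (log2 difference -0.12, limma adjusted p = 0.669). Psmb8 and Psmb9 encode subunits of the immunoproteasome, which cuts proteins into peptides for presentation. Psmb8 had 1.80, 2.86 and 2.504 FPKM in Med23KO and 1.80, 1.93 and 1.78 FPKM in Ctrl (limma adjusted p = 0.454), and Psmb9 had 1.42, 2.17 and 1.34 FPKM in Med23KO and 2.23, 1.54 and 0.932 FPKM in Ctrl (limma adjusted p = 0.924). Tap1, a subunit of the peptide transporter, had 8.64, 6.63 and 3.44 FPKM in Med23KO and 9.23, 4.57 and 3.66 FPKM in Ctrl (limma adjusted p = 0.920). Tap1 spread widely within each group, replicate 1 being the highest in both. Psmb9 and Tap1 overlap at their 5′ ends on opposite strands.

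**Figure D5:**
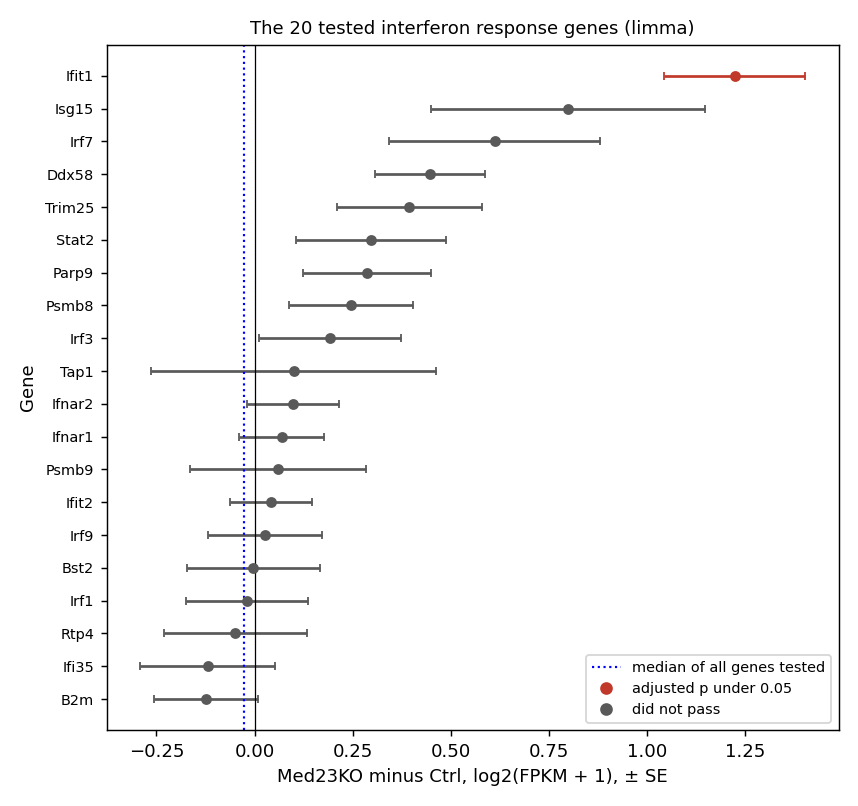
Log2 difference, Med23KO minus Ctrl on the log2(FPKM + 1) scale, with its SE, for the 20 tested genes; the dotted line is the median of all genes tested (-0.03). Ifit1 (red, 1.22) is the gene that passed the test, and Isg15 and Irf7, at 0.80 and 0.61, follow with wide errors.

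The knockout libraries did not contribute alike. Of the 32 genes above 0 in a knockout library, 19 had their highest knockout value in Med23KO replicate 2, 12 in replicate 1 and 1 in replicate 3. Med23KO replicate 3 held the lowest knockout value of 24 of the 32, and it was also the library whose median over all genes tested was lowest. The part of that general shift in these values was not tested. Relative to the Ctrl mean, the median of the 20 tested genes was 0.17, 0.24 and -0.04 (log2) in Med23KO replicates 1, 2 and 3, and 0.15, -0.01 and -0.09 in Ctrl replicates 1, 2 and 3. Med23KO replicate 1 was thus level with Ctrl replicate 1 on this measure, and Med23KO replicate 3 lay inside the Ctrl range.

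The authors' deposited table, made with Cuffdiff from the same libraries, gave more calls. Of the 24 genes it compared, it called 8 higher in the knockout (q under 0.05) and 0 lower, where its background was 8.61% higher and 7.04% lower. The 9 genes it did not compare all averaged under 1 FPKM. All of the 8 but Trim25 had a Ctrl mean under 1 FPKM, and some may have been compared only through their Med23KO values. The count of 8 therefore supports no direction. The 8 in the authors' deposited table were Ifit1, Rsad2 and Ifih1 (q = 0.000695 each), Oasl2 (q = 0.00132), Trim25 (q = 0.00189), Irf7 (q = 0.00296), Ddx58 (q = 0.00576) and Isg15 (q = 0.0380). Of these, 3 lay under the filter of 1 FPKM and had no test here. Of those tested here, Ifit1 passed, while Ddx58, Irf7, Isg15 and Trim25 did not (limma adjusted p = 0.137, 0.265, 0.263 and 0.297).

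The genes upstream and around these 33 were taken from lists of 151 pathway genes, of which 146 had a row. The ligands gave no signal in the knockout. Of 20 interferon ligand genes, including Ifnb1, the Ifna genes, Ifnl2, Ifnl3 and Ifng, 18 were listed at 0 in all 6 libraries, and none was above 0 in a Med23KO library. Ifne and Ifnab had values up to 0.216 and 0.153 FPKM in Ctrl.

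Of the 68 other pathway genes tested, 2 rose and 0 fell (limma, adjusted p under 0.05), where the background was 1.49% higher and 1.42% lower. At an unadjusted p under 0.05, 13 were higher and 3 lower, where the background was 8.84% and 10.9%. Oasl1, Ptpn6, Lgals9, Ccl5 and Isg20, 5 of the 68, had a Ctrl mean under 1 FPKM and passed the filter through their Med23KO values, so these counts support no direction. The 2 that rose were Oasl1 and Jak2. Oasl1, an interferon-inducible member of the Oas family that in mice represses the translation of Irf7, had 2.65, 2.65 and 1.63 FPKM in Med23KO and 0.497, 0.382 and 0.500 FPKM in Ctrl (log2 difference 1.17, SE 0.177, limma adjusted p = 0.0231). Like Ifit1, it lost the call without any 1 of the 5 libraries other than Med23KO replicate 3 (limma adjusted p up to 0.138), while its log2 difference stayed between 1.09 and 1.32. Jak2, the kinase of the interferon gamma and cytokine receptors, had 20.9, 19.7 and 18.9 FPKM in Med23KO and 12.1, 12.7 and 14.4 FPKM in Ctrl (log2 difference 0.57, SE 0.106, limma adjusted p = 0.0378). Its groups did not overlap, and its call too was lost without any 1 of those 5 libraries (adjusted p up to 0.185, log2 difference 0.52 to 0.64) and with no filter on low values (adjusted p = 0.0645, limma).

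Of the 14 other receptor and signalling genes tested, Jak2 was the only one to pass, and the kinases of the type I receptor did not. At an unadjusted p under 0.05 (limma), 5 of the 14 were higher and 0 lower, where the background was 8.84% and 10.9%. The limit given above for the counts of tested pathway genes applies here too. Jak1 had 28.9 ± 0.432 FPKM in Med23KO and 28.2 ± 1.21 FPKM in Ctrl, and Tyk2 had 4.53 ± 1.47 FPKM in Med23KO and 4.56 ± 0.595 FPKM in Ctrl (SD, n = 3 each). Ptpn6, Ifngr2 and Stat3 had log2 differences of 0.60, 0.32 and 0.40 and did not pass (limma adjusted p = 0.136, 0.235 and 0.235). Of the 13 other sensors and adaptors tested, 0 passed, with 1 higher and 1 lower at an unadjusted p under 0.05. Tlr4, the receptor for bacterial lipopolysaccharide, came closest, at 10.05 ± 0.472 FPKM in Med23KO and 6.54 ± 0.708 FPKM in Ctrl (SD, n = 3 each, limma adjusted p = 0.0509). It passed over genes of at least 5 FPKM (limma adjusted p = 0.0473), without Med23KO replicate 3 (0.0461), with library weights (0.0106) and with the replicate block (0.00686). Adar, which edits double-stranded RNA and so limits its detection by MDA5, had 5.08 ± 0.0794 FPKM in Med23KO and 6.62 ± 0.128 FPKM in Ctrl (SD, n = 3 each, limma adjusted p = 0.135), and its groups did not overlap. Tbk1 and Mb21d1, the gene of the DNA sensor cGAS, had log2 differences of 0.22 and -0.24.

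Of the 28 other interferon-induced effectors tested, Oasl1 rose and 0 fell. At an unadjusted p under 0.05 (limma), 7 of the 28 were higher and 1 lower, where the background was 8.84% and 10.9%. These counts too are under the limit given above for the tested pathway genes. Ccl5, a chemokine, had 3.59, 6.63 and 2.10 FPKM in Med23KO and 1.71, 0 and 0 FPKM in Ctrl (limma adjusted p = 0.0891). Lgals9 and Irgm1 had log2 differences of 0.70 and 0.45 and did not pass (limma adjusted p = 0.0946 and 0.131). The gene that was lower at an unadjusted p under 0.05 was Ifitm3, named after its values were seen. It had 168 FPKM in Med23KO and 213 FPKM in Ctrl (means, n = 3 each), with groups apart. Its log2 difference of -0.34 did not pass (limma adjusted p = 0.139). By the authors' q-values, 13 of 36 of these effectors were higher and 2 lower (Ifitm3 and Ly6e), under the same limit. Of the 26 other effectors with a mean of 0.1 to 1 FPKM, 12 had all Med23KO libraries above all Ctrl libraries and 0 had the reverse, against a background of 12.8% and 4.96%. Of these 12, 4 had a Ctrl mean under 0.1 FPKM and entered the range only through their Med23KO values, so the count supports no direction. An example chosen after its values were seen is the GTPase gene Ifi47, at 0.996 ± 0.0562 FPKM in Med23KO and 0.177 ± 0.0811 FPKM in Ctrl (SD, n = 3 each). Of the 13 other antigen presentation genes tested, 0 passed (limma), with 0 higher and 1 lower at an unadjusted p under 0.05. The class I heavy chain genes H2-K1 and H2-D1 had log2 differences of -0.28 and -0.39, and Tapbp and Pdia3 of 0.42 and 0.11.

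Other cell types can carry interferon response genes into a sort of muscle stem cells, so their markers are given here. The 12 macrophage and leukocyte markers summed to 13.8 to 43.3 FPKM in Med23KO and 16.3 to 30.6 FPKM in Ctrl, most of it Lyz2. The leukocyte marker Ptprc was at most 0.0896 FPKM in Med23KO and 0.0775 FPKM in Ctrl, and Ptprc, Adgre1, Aif1 and Tyrobp, 4 of the 12, were at 0 in at least 1 library. The Med23KO mean was higher for 6 of the 12, among them Csf1r, at 0.463 ± 0.175 FPKM in Med23KO and 0.286 ± 0.0833 FPKM in Ctrl (SD, n = 3 each), with overlapping groups. Cd14 was the only one of the 12 with groups apart, and it was lower in Med23KO. It had 1.63 ± 0.418 FPKM in Med23KO and 2.33 ± 0.154 FPKM in Ctrl (SD, n = 3 each, limma adjusted p = 0.271). All 4 tested had a negative log2 difference, and 0 of the 4 passed (limma, 0 also at an unadjusted p under 0.05). The 8 endothelial markers summed to 16.9 to 19.7 FPKM in Med23KO and 11.6 to 22.1 FPKM in Ctrl. Of the 5 tested, 0 passed (limma), with 1 higher and 0 lower at an unadjusted p under 0.05. The higher one, Eng, had 9.07 ± 1.34 FPKM in Med23KO and 6.37 ± 1.70 FPKM in Ctrl. Tek, under the filter, had 0.710 ± 0.251 FPKM in Med23KO and 1.18 ± 0.0354 FPKM in Ctrl, with groups apart (SD, n = 3 each). The 10 markers of fibro-adipogenic progenitors and fibroblasts summed to 339.9 to 487 FPKM in Med23KO and 261 to 342 FPKM in Ctrl. Most of each sum was Col3a1, at 242 ± 52.6 FPKM in Med23KO and 161 ± 21.9 FPKM in Ctrl (SD, n = 3 each). All 9 tested had a positive log2 difference, though 0 passed (limma, 4 at an unadjusted p under 0.05). Dpt, under the filter, had the lower mean in Med23KO, with overlapping groups. The part of these cell types in the values of the interferon response genes was not tested. Ly6a, 1 of these markers, is itself interferon-inducible.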

How the data were processed

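Per the labels' protocols, poly(A) RNA was extracted with TRIzol and made into strand-specific libraries (NEBNext Ultra Directional). Per the submitters' processing notes, FastQC, cutadapt, STAR and Cuffdiff were used with the mm10 build; for versions, annotation and strand setting the sources used here give nothing. The authors deposited FPKM per gene for 6 libraries, with group means, p-values and q-values from Cuffdiff. Read counts were not used here, so the depth is unknown and no counting interval is given.

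Values were analysed as log2(FPKM + 1) with limma 3.58.1 in R 4.3.3 (empirical Bayes with a mean-variance trend, no covariate), over genes averaging 1 FPKM or more in the 6 libraries, with Benjamini-Hochberg adjustment over all 12336 genes and a threshold of 0.05. The script was tested on simulated data. Single genes were also compared by an exact two-sided permutation test. Gene positions are from GENCODE vM21 and promoters from RefSeq GRCm38.p6.

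The members and gene lists were chosen with earlier results of these data known. All 33 genes were named. Values per library were due for genes with an adjusted p under 0.2, the 3 highest tested genes, and Ifnar1, Ifnar2, Stat2, Irf9, Irf3 and Irf7; of each other list, up to 4 genes with the smallest adjusted p were named, with Ifnb1, Jak1 and Tyk2 and 1 gene that is not reported here. Other genes given per library, among them Ifih1, Rsad2, Isg15, Oasl2, Parp9, Trim25 and Tap1 where the rule did not take them, were chosen after their values were seen. Of the list symbols, 5 had no row and were not used here. Alternatives were another pseudocount, filters, scalings and variance models, the replicate number as a block, each library left out, and the authors' q-values.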

Additional observations from a re-analysis of the deposited data

How the results depend on the processing

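Among 395 recomputed values of the named genes, 338 kept their direction and side of the threshold, 20 newly passed, 16 no longer passed and 21 changed sign. The count of interferon response genes called higher (1) was 0 with a mean of at least 5 FPKM, where Ifit1 was not tested, 2 with the replicate block (Ifit1 and Trim25), 3 with library weights (these and Ddx58), 8 by the authors' q-values, and 0 to 3 with 1 library left out; it was 1 under the other alternatives. The count called lower was 0 under every alternative run. Of all genes tested, 9.57% were called higher with the replicate block and 6.89% with library weights. Ifit1 kept its call under the alternatives with 6 libraries that tested it (limma adjusted p = 0.00421 to 0.0416), and Ddx58 passed with library weights (limma adjusted p = 0.0339).

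For the other pathway genes, the count called higher (2 of 68) was 4 of 127 with no filter, where the background was 0.357%. It was 4 of 103 with a mean of at least 0.1 FPKM and a pseudocount of 0.1 (background 1.15%). It was 12 of 68 with the replicate block (background 9.57%) and 12 of 68 with library weights (background 6.89%). By the authors' q-values it was 19 of 80 (background 8.61%). With 1 library left out it was 0 to 11 of 68. The count called lower (0) was 5 with the replicate block, 1 with library weights and 4 by the authors' q-values, where the backgrounds were 12.8%, 6.89% and 7.04%. The limit given above for the tested pathway genes applies to these counts, which support no direction. The median log2 difference of the 20 tested interferon response genes (0.10) was 0.048 without Ctrl replicate 3 and 0.24 without Ctrl replicate 1, the lowest and highest with 1 library left out, and 0.33 with a mean of at least 0.1 FPKM and a pseudocount of 0.1, where 29 genes were tested. That setting and the library weights were chosen after seeing the data. The causes of these differences were not tested.

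Whether the replicate numbers pair the libraries is not settled by these values. Deviations from the group means correlated at 0.437, -0.0158 and 0.563 for same-numbered libraries. For differently numbered libraries the correlations ran from -0.575 to 0.337. With the block, all genes called were 1180 higher and 1577 lower, against 184 and 175 without it; without 1 library they were 3 to 749 higher and 10 to 395 lower. Median scaling gave 351 higher and 198 lower, quantile normalization 298 and 201, no filter 73 and 84, and library weights 850 and 850.

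The genes that changed sign had log2 differences near 0. Zbp1 was -0.049 with the 0.1 FPKM filter. Quantile normalization gave Irf9 -0.067 and Psmb9 -0.040. Median scaling gave Irf1 0.0017 and Bst2 0.020, and library weights gave Ifi35 0.0013, Bst2 0.18 and Rtp4 0.063. With 1 library left out, Irf9 ranged from -0.051 to 0.13, Irf1 from -0.15 to 0.10, Ifi35 from -0.27 to 0.014, Bst2 from -0.10 to 0.14, Rtp4 from -0.18 to 0.060, Psmb9 from -0.13 to 0.24 and Tap1 from -0.14 to 0.44. With 3 libraries per group and unknown depth, values under about 1 FPKM are the least certain.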
